A study of Saccharomyces cerevisiae with 24 samples.

Results

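The 9 genes described here are the yeast genes for phospholipid methylation and for inositol supply and its control: CHO1, PSD1, CHO2, OPI3, INO1, ITR1, INO2, INO4 and OPI1. They were chosen by gene name from the 6304 genes that carry values in both tables, and all 9 passed the filter on low values that left 4888 genes for testing. Saccharomyces cerevisiae of the CEN.PK background carried the DIM1 allele E85Q, the DIM1 allele D87E or wild-type DIM1 (WT). DIM1 encodes the enzyme that dimethylates neighbouring adenosines near the end of 18S rRNA, with S-adenosylmethionine (SAM) as the methyl donor. Cultures of all genotypes grew in log phase with 1 mM methionine as their sulfur source (with methionine) and were then kept for 2 h in a medium with no sulfur at all (without methionine, called starved here). Each genotype has 2 numbered strains, called isolates here: E85Q 623 and 625, D87E 887 and 888, WT 172 and 600. Every isolate gave 1 RNA-seq and 1 ribosome footprint library per medium, so each of the 6 groups holds 2 samples per assay. Starved cells lacked every sulfur source and not methionine alone, and the labels do not say whether an isolate is an independent transformant, so p-values measure the spread between these isolates only.

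Yeast makes phosphatidylcholine, its main membrane lipid, either from choline or by methylating phosphatidylethanolamine with SAM, which makes this lipid pathway a large consumer of methyl groups. Genes of the pathway share an inositol-sensitive promoter element: the activators Ino2 and Ino4 bind it as a pair, and the repressor Opi1 is released from the endoplasmic reticulum to act on it when phosphatidic acid falls. INO1, which makes inositol from glucose 6-phosphate, is the best-known target, and the regulators are themselves part of the circuit.

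RPKM (reads per kilobase of gene, scaled to library size) is a share of a library, so a lower RPKM and less of that RNA per cell cannot be told apart. Depth recovered from the RPKM steps was 24.3 M to 32.3 M mRNA reads and 21.4 M to 81.4 M footprint reads per library (M, mega). Footprint depth was 21.4 M to 27.3 M in starved D87E and WT, and 39.2 M and 46.9 M in starved E85Q. With methionine it was 49.1 M to 81.4 M. The fewest reads behind a value of the 9 genes were 174 (INO4 mRNA) and 192 (INO2 footprints), a counting error of at most 7.58%. No 2 of the 9 genes overlap each other or another RefSeq gene. Entries outside RefSeq were not checked for overlap. The a-cell genes were on and the alpha-cell genes low in all 12 mRNA libraries (STE2 216 to 363 RPKM, MF(ALPHA)1 0.125 to 2.5 RPKM), except the alpha-cell agglutinin gene SAG1, which at 5.7 to 24.3 RPKM reached the level of INO2 mRNA, with footprints of 0.119 to 0.761 RPKM. DIM1 itself stood at 17.2 and 17.7 RPKM of mRNA in starved E85Q and at 92.1 and 91.2 RPKM in E85Q with methionine, with similar values in the other genotypes, so an RPKM does not check the point alleles.

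With methionine, WT mRNA levels per length spanned a wide range, from ITR1 at 696 and 632 RPKM and OPI3 at 414 and 381 RPKM down to INO4 at 19.9 and 16.9 RPKM. CHO1 and CHO2 lay between, at 274 and 259 RPKM and 219.7 and 181 RPKM. PSD1, OPI1 and INO1 had overlapping levels of 77.6 and 66.2, 68.5 and 70.0 and 79.6 and 52.6 RPKM. The activator genes INO2 and INO4 were the least abundant and overlapped each other, with INO2 at 17.6 and 19.4 RPKM. Here and below, a pair of values gives the isolates in the order 623 and 625, 887 and 888, or 172 and 600.

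**Figure D1:**
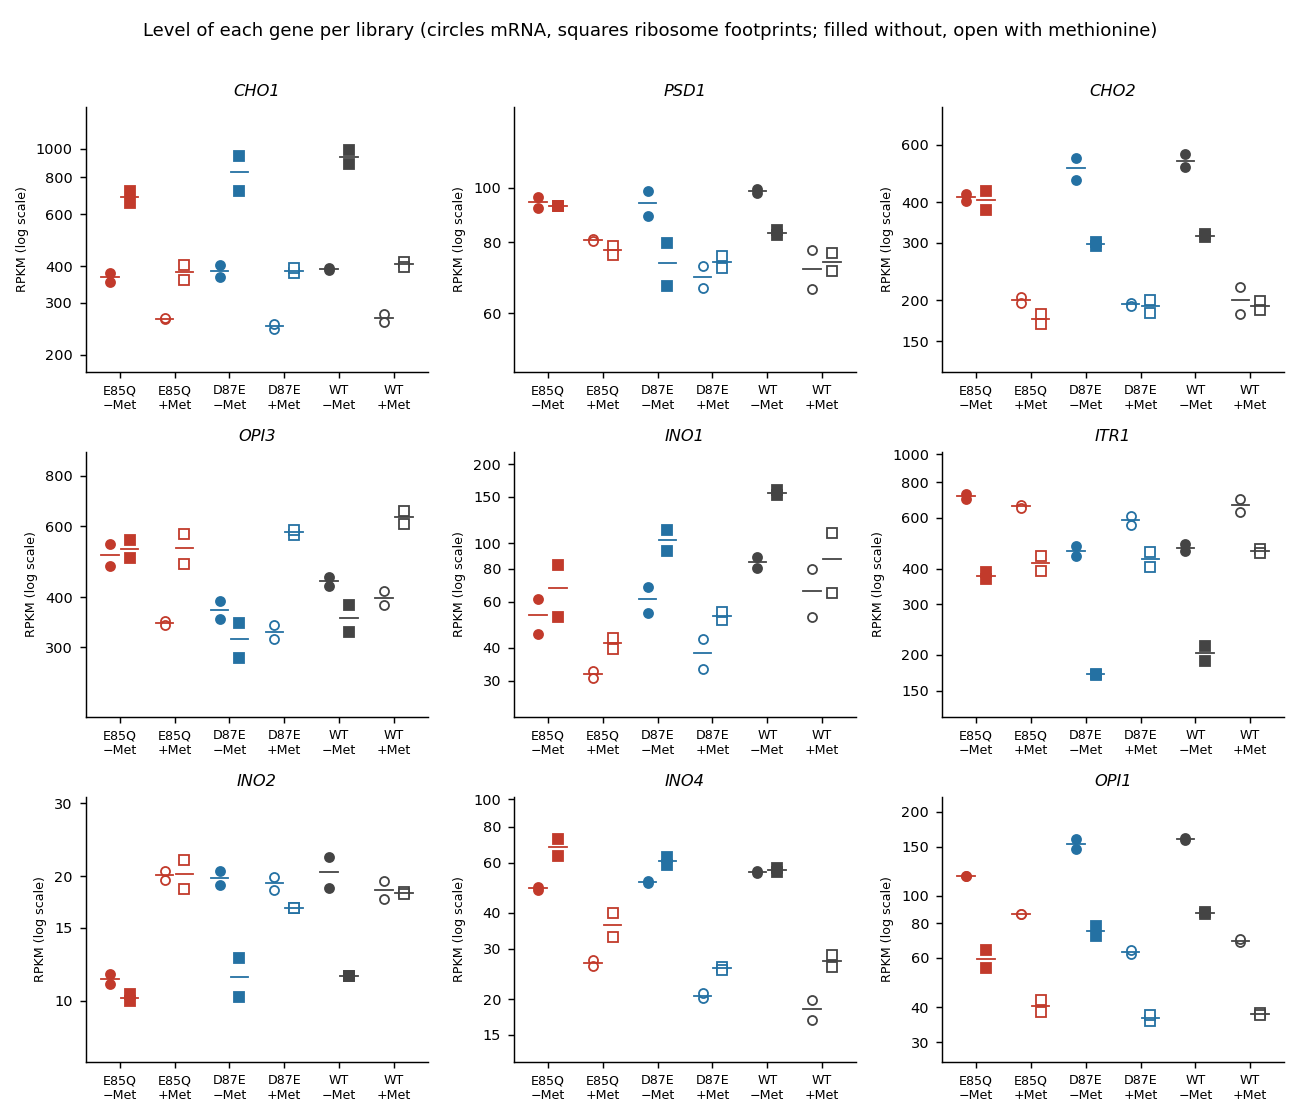
mRNA (circles) and ribosome footprint (squares) levels of the 9 genes in every library, in RPKM on log axes that differ between panels; filled symbols are without methionine, open symbols with methionine, and a line marks the mean of 2 isolates. mRNA of CHO1, PSD1, CHO2, OPI3, INO1, INO4 and OPI1 lay higher in every starved library than in its own genotype with methionine. ITR1 and OPI3 footprints were lower in starved D87E and WT, while in E85Q the OPI3 groups overlapped and the ITR1 groups lay close together.

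Starvation split the 9 genes. In WT, mRNA of CHO2, INO4 and OPI1 was more than 2-fold higher without methionine (35.2% of all tested genes were called with at least a 2-fold change), CHO1 and PSD1 were modestly higher, ITR1 was lower, and INO1, OPI3 and INO2 did not pass the test. Of the 9, limma called 8 in E85Q (7 higher, 1 lower), 7 in D87E (6 higher, 1 lower) and 6 in WT (5 higher, 1 lower) at an adjusted p below 0.05. Those shares stand against a background in which 76.9% of the 4888 genes were called in E85Q, 86.1% in D87E and 86.9% in WT. By direction the background was 46.5% higher and 30.3% lower in E85Q, 60.7% and 25.5% in D87E, and 60.2% and 26.7% in WT. The median log2 change of mRNA over all tested genes was 0.14 in E85Q, 0.41 in D87E and 0.40 in WT, beside 0.46, 0.62 and 0.46 over the 9 genes. With each library centred on its median, the calls became 6 higher and 1 lower in E85Q, 4 and 3 in D87E, and 3 and 3 in WT. Of all tested genes, 40.2% were then called higher and 34.7% lower in E85Q, 40.9% and 41.2% in D87E, and 40.4% and 41.4% in WT. Below, a change is a log2 value ± its standard error (SE), and the bare number in brackets with a change is limma's adjusted p. After a library left out, or after centring, the number in brackets is the log2 value found then.

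Footprints followed mRNA only in part. In WT, CHO1, CHO2, INO1, INO4 and OPI1 gained footprints, whereas OPI3, ITR1 and INO2 lost them. limma called 7 of the 9 in E85Q (background 75.5%), 8 in D87E (82.3%) and 8 in WT (83.4%). Translation efficiency (TE), the log2 of footprints over mRNA in a sample, rose for CHO1 and INO1 in starved D87E and WT and fell for most of the others. The 8 calls of TE in D87E were 2 higher and 6 lower (background 60.9%, of which 13.1% higher and 47.9% lower), and the 8 in WT were also 2 higher and 6 lower (53.3%, of which 16.7% and 36.6%). In E85Q, OPI3 was the 1 gene of the 9 called for TE (background 6.2%), with 3 at an unadjusted p below 0.05. Centring the libraries left 2 higher and 3 lower TE calls in D87E, 2 and 5 in WT, and 1 and 1 in E85Q. Centred shares over all tested genes were 29.6% higher and 23.4% lower in D87E, 29.3% and 21.1% in WT, and 3.76% and 3.4% in E85Q.

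**Figure D2:**
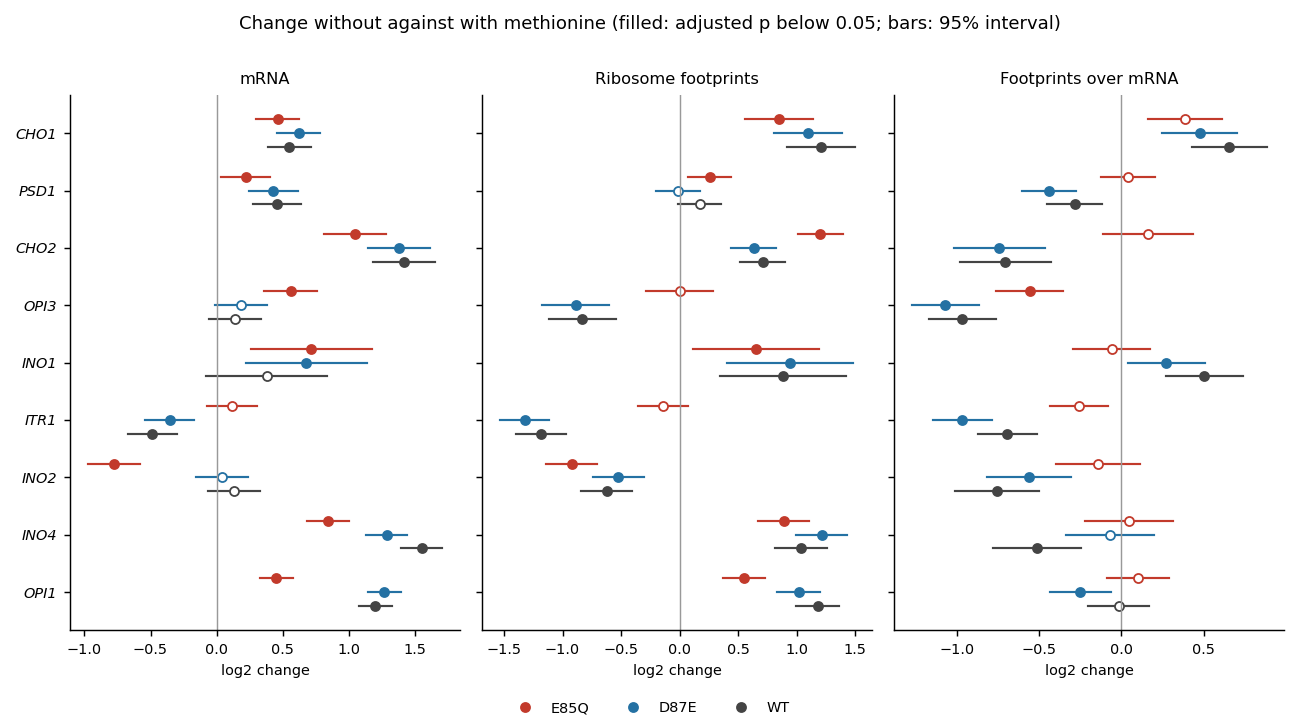
log2 change without against with methionine for each gene and genotype, in mRNA, footprints and footprints over mRNA; bars are 95% intervals from limma and filled points have an adjusted p below 0.05. For CHO2, OPI3 and ITR1 the footprint change in E85Q (red) lies to the right of those in D87E and WT, and the TE points of E85Q lie closer to 0; for OPI1, INO2 and INO4 the mRNA change in E85Q lies to the left.

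The difference in the starvation response between E85Q and WT, tested directly, was called for 5 of the 9 genes in mRNA (background 60.4%), 4 in footprints (41.4%) and 6 in TE (21.9%). The mRNA response was larger in E85Q for OPI3 and ITR1 and smaller for INO2, INO4 and OPI1 (background 11.8% higher and 48.6% lower). In TE the response was larger, meaning a smaller drop or none, for CHO2, OPI3, ITR1, INO2 and INO4, and smaller for INO1. Those 5 higher and 1 lower calls stand against 17.4% higher and 4.44% lower among all tested genes. Median-centred libraries left 1 higher (CHO2) and 1 lower (INO1) call of TE, beside 7.63% and 7.96% among all tested genes. Over all tested genes the median difference was -0.28 for mRNA, -0.13 for footprints and 0.13 for TE. No gene of the 9 was called for the difference between D87E and WT in any measure (background 0% in all 3), and 1 in mRNA, 0 in footprints and 2 in TE had an unadjusted p below 0.05 by limma.

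**Figure D3:**
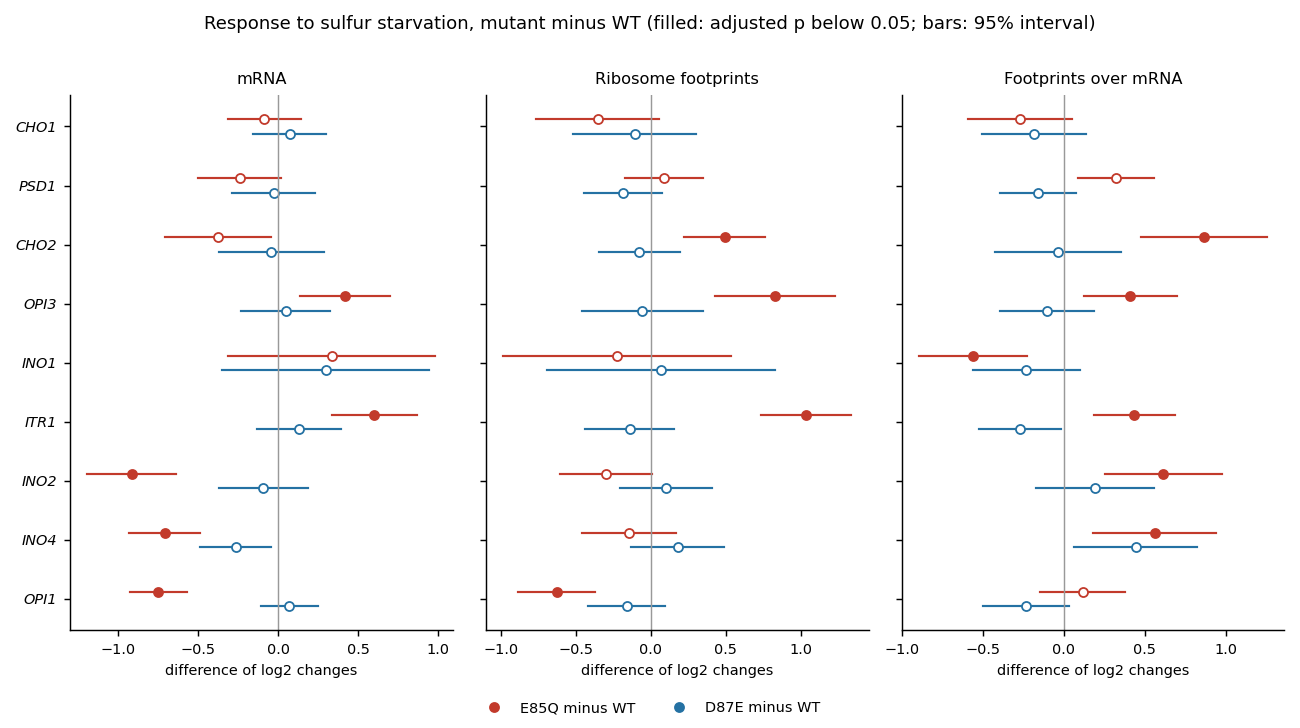
Response to sulfur starvation in a mutant minus that in WT, as a difference of log2 changes with 95% intervals from limma; filled points have an adjusted p below 0.05. E85Q (red) has 5, 4 and 6 filled points in the 3 panels and D87E (blue) has none.

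CHO2 (YGR157W, chromosome VII, 802440 to 805049 on the plus strand of the R64 assembly, which is sacCer3) encodes the enzyme that adds the first methyl group to phosphatidylethanolamine. Its mRNA stood at 425 and 402 RPKM in starved E85Q, against 204 and 196 RPKM in E85Q with methionine. D87E had 468 and 547 RPKM starved, against 196 and 193 RPKM with methionine. WT had 511 and 559.6 RPKM starved, against 219.7 and 181 RPKM with methionine. Every starved library lay above every library with methionine, and the starved E85Q libraries lay below the other starved ones. The changes were 2.06-fold in E85Q (log2 1.04 ± 0.10 SE, adjusted p = 6.07e-06), 2.59-fold in D87E (1.37 ± 0.10, 4.01e-07) and 2.67-fold in WT (1.42 ± 0.10, 3.13e-07).

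CHO2 footprints turned that order round among the starved cells. They were 379 and 431 RPKM in starved E85Q and 169 and 181 RPKM in E85Q with methionine. In D87E they were 302 and 293 RPKM starved and 183 and 201 RPKM with methionine, and in WT 318 and 313 RPKM starved and 199 and 187 RPKM with methionine. Both starved E85Q libraries were above all other starved libraries, although they had less CHO2 mRNA. Footprints rose 2.3-fold in E85Q, 1.55-fold in D87E and 1.64-fold in WT. Footprint RPKM was 0.893 and 1.07 times mRNA RPKM in starved E85Q, 0.645 and 0.535 times in starved D87E and 0.623 and 0.56 times in starved WT, while the ratio was 0.828 to 1.04 in the 6 samples with methionine. TE fell by 0.74 on the log2 scale in D87E (SE 0.12, adjusted p = 0.000455) and by 0.71 in WT (SE 0.12, 0.00087), and changed by 0.16 ± 0.12 in E85Q (0.492).

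The TE response of CHO2 in E85Q exceeded that in WT by 0.87 ± 0.18 (95% interval 0.48 to 1.25, adjusted p = 0.0103), the largest such difference among the 9 genes, and it was called without any 1 of the 8 libraries. In the starved cells E85Q had higher CHO2 TE than WT by 0.73 ± 0.12 (0.00204), higher footprints by 0.36 ± 0.09 (0.00648) and lower mRNA, with a difference of -0.37 ± 0.10 (0.011). The mRNA call was lost without WT 600 (-0.30) or E85Q 625 (-0.33) and after centring (-0.19), and the footprint call was lost without E85Q 625 (0.26). With methionine, E85Q and WT differed by 0.00 in mRNA (0.987), -0.14 in footprints (0.351) and -0.14 in TE (0.701), none of them called. The difference in the mRNA response, -0.37, had an adjusted p of 0.05, at the threshold and not called; without WT 172 with methionine it was -0.51 and called.

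OPI3 (YJR073C, chromosome X, 572315 to 572935 on the minus strand) encodes the methyltransferase that completes phosphatidylcholine from the product of Cho2. OPI3 mRNA was 540.1 and 478 RPKM in starved E85Q, against 348 and 342 RPKM in E85Q with methionine. In D87E it was 353 and 391 RPKM starved and 314 and 340.3 RPKM with methionine. In WT it was 449 and 426 RPKM starved and 414 and 381 RPKM with methionine. The groups of each genotype did not overlap, but the gap was wide only in E85Q, where mRNA rose 1.47-fold (log2 0.56 ± 0.09, adjusted p = 0.000203). The changes in D87E (0.18 ± 0.09, 0.0741) and WT (0.14 ± 0.09, 0.168) were not called, and with centred libraries both turned to called falls of -0.21 and -0.27. In D87E the rise was called without the starved 887 library (0.26).

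Footprints on OPI3 were 555 and 499.9 RPKM in starved E85Q and 573 and 484 RPKM in E85Q with methionine, so these groups overlapped. They were 283 and 345 RPKM in starved D87E and 571 and 588 RPKM in D87E with methionine. In WT they were 382 and 329 RPKM starved and 655 and 607 RPKM with methionine. Starved D87E held 0.541 and starved WT 0.562 of the footprints of the same genotype with methionine, on an mRNA whose RPKM was no lower. The log2 changes were 0.00 ± 0.13 in E85Q (0.998, not called), -0.89 ± 0.13 in D87E (8.37e-05) and -0.83 ± 0.13 in WT (0.000134). The difference between the E85Q and WT responses was 0.83 ± 0.18 in footprints (0.0059), called without any 1 of the 8 libraries.

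The ratio of OPI3 footprints to mRNA was 1.03 and 1.04 in starved E85Q, against 1.65 and 1.42 in E85Q with methionine. It was 0.802 and 0.882 in starved D87E, against 1.82 and 1.73 in D87E with methionine. In starved WT it was 0.851 and 0.771, against 1.58 and 1.59 in WT with methionine. The ratio was lower in starved cells of all 3 genotypes, with the starved E85Q samples above the other starved samples. OPI3 was the 1 gene of the 9 called for lower TE in starved E85Q (-0.56 ± 0.09, adjusted p = 0.00561), a call lost without E85Q 623 with methionine (-0.45). OPI3 TE fell in D87E by 1.07 (SE 0.09, 7.56e-06) and in WT by 0.97 (SE 0.09, 2.08e-05).

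The smaller TE drop of OPI3 in E85Q, 0.41 ± 0.13 relative to WT (adjusted p = 0.0461), lay close to the threshold. It had an adjusted p of 0.0673 with the isolate as a block, 0.183 after centring (difference 0.27), and was lost without any 1 of 7 of the 8 libraries, E85Q 623 with methionine being the exception (0.30 to 0.48 among the 7). The mRNA difference of 0.42 ± 0.13 (0.0153) was lost without WT 172 with methionine (0.36), WT 600 starved (0.38) or E85Q 623 starved (0.33). Between starved cells, E85Q exceeded WT in OPI3 footprints by 0.57 ± 0.13 (0.00435) and in TE by 0.35 ± 0.09 (0.0139), the TE call being lost without WT 600 (0.28) or E85Q 625 (0.34). OPI3 mRNA differed by 0.22 ± 0.09 (0.0564) in starved cells and by -0.20 ± 0.09 (0.108) with methionine, neither called; after centring both were called, at 0.40 and -0.33, and the first was also called without E85Q 625 (0.30).

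**Figure D4:**
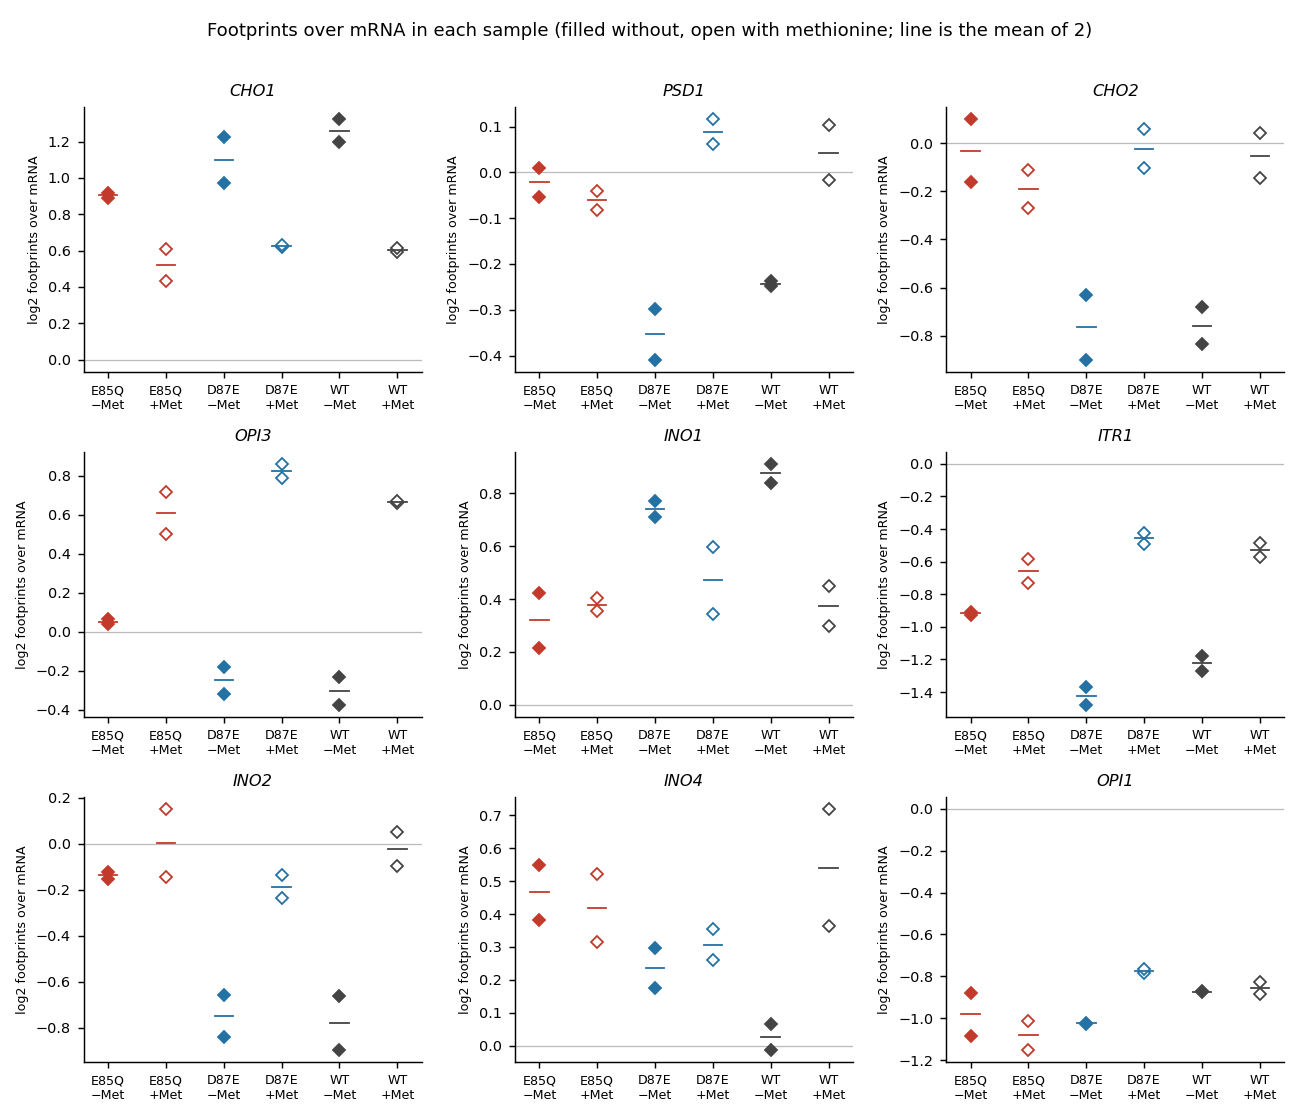
Translation efficiency, log2 of (footprint RPKM + 1) over (mRNA RPKM + 1), of the 9 genes in each of the 12 samples; filled symbols are without methionine, open symbols with methionine, lines are means of 2. In starved D87E and WT the points of CHO2, OPI3, ITR1 and INO2 sit below those with methionine and those of CHO1 above; in E85Q the CHO2 and INO2 groups overlap.

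CHO1 (YER026C, chromosome V, 207644 to 208474 on the minus strand) encodes phosphatidylserine synthase, which makes the precursor of phosphatidylethanolamine. Its mRNA was 379.9 and 352 RPKM in starved E85Q, 366 and 402 RPKM in starved D87E and 386 and 394 RPKM in starved WT. With methionine it was 264 and 267 RPKM in E85Q, 246 and 253 RPKM in D87E and 274 and 259 RPKM in WT. All starved libraries were above all libraries with methionine, and the starved D87E range overlapped those of starved E85Q and WT. The log2 changes were 0.46 ± 0.07 in E85Q (adjusted p = 0.000186), 0.62 ± 0.07 in D87E (1.3e-05) and 0.55 ± 0.07 in WT (3.49e-05), of which the WT call was lost after centring (0.14).

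Of the 9 genes CHO1 had the largest gain in footprints in WT, close to that of OPI1. CHO1 footprints reached 719 and 653 RPKM in starved E85Q, against 403 and 359.6 RPKM in E85Q with methionine. They reached 720.2 and 943 RPKM in starved D87E, against 378 and 393 RPKM in D87E with methionine. Starved WT had 886 and 989.7 RPKM, against 414 and 398 RPKM in WT with methionine. Starved E85Q lay below starved WT, at the foot of the starved values, with the lower D87E library next to it. The gains were 1.8-fold in E85Q, 2.14-fold in D87E and 2.3-fold in WT (adjusted p of 0.000174, 1.91e-05 and 8.86e-06). Footprints over mRNA were 1.89 and 1.86 in starved E85Q, 1.97 and 2.34 in starved D87E and 2.29 and 2.51 in starved WT, above the 1.35 to 1.55 of the samples with methionine.

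CHO1 TE rose by 0.48 ± 0.10 in D87E (0.00227) and by 0.66 ± 0.10 in WT (0.000424); in E85Q it was 0.39 ± 0.10 with an adjusted p of 0.0516, not called, though called after centring (0.43, 0.0299). The CHO1 response did not pass the test of a difference between E85Q and WT in mRNA (-0.09, 0.491), footprints (-0.36, 0.139) or TE (-0.27, 0.191). Between starved cells, E85Q was lower than WT in CHO1 footprints (-0.45 ± 0.13, 0.0153) and in TE (-0.36 ± 0.10, 0.0217). The footprint call was lost without WT 600 (-0.37) or E85Q 625 (-0.38), and the TE call without WT 600 (-0.29), E85Q 623 (-0.37) or E85Q 625 (-0.34).

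PSD1 (YNL169C, chromosome XIV, 316169 to 317671 on the minus strand) encodes the mitochondrial decarboxylase that turns phosphatidylserine into phosphatidylethanolamine, and it changed little. Its mRNA was 96.3 and 92.0 RPKM in starved E85Q, 89.3 and 98.5 RPKM in starved D87E and 99.3 and 98.0 RPKM in starved WT, against 66.2 to 81.1 RPKM in the libraries with methionine. These rises (0.22 ± 0.08 in E85Q, 0.43 ± 0.08 in D87E and 0.46 ± 0.08 in WT) were near the median change of all tested genes in the same genotype, and all 3 calls were lost after centring (0.13, 0.03 and 0.05). The E85Q call was also lost without any 1 of its 4 libraries (0.19 to 0.25). PSD1 footprints were 92.7 and 92.7 RPKM in starved E85Q, 67.0 and 79.9 RPKM in starved D87E and 84.0 and 82.4 RPKM in starved WT, against 71.1 to 78.8 RPKM with methionine. The mRNA groups did not overlap in any genotype, whereas the footprint groups of D87E did.

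PSD1 footprints rose in E85Q (0.26 ± 0.08, 0.0166), a call that was lost without either starved E85Q library (0.26 in both cases) or without E85Q 625 with methionine (0.23). They changed by -0.01 in D87E (0.882) and by 0.17 in WT (0.0778, not called, though called at an adjusted p of 0.0483 with the isolate as a block). PSD1 TE fell in D87E (-0.44 ± 0.08, 0.000503) and in WT (-0.29 ± 0.08, 0.00847), with both calls lost after centring (-0.17 and -0.10) and that in WT without WT 600 with methionine (-0.23). Starved E85Q had higher PSD1 TE than starved WT (0.22 ± 0.08, 0.0409), a call lost without any 1 of the 4 libraries (0.19 to 0.25) and after centring (0.16). The TE responses of E85Q and WT differed by 0.32 ± 0.11 (0.051, not called, though called at an adjusted p of 0.0396 with no filter). Without WT 172 with methionine that difference was 0.39 and called, as were the difference of the mRNA responses (-0.35) and the excess of E85Q mRNA over WT with methionine (0.28).

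INO1 (YJL153C, chromosome X, 134332 to 135933 on the minus strand) encodes inositol-3-phosphate synthase, the first enzyme of inositol synthesis, and of the 9 it was the gene on which the genotypes differed most with methionine. INO1 mRNA was 32.8 and 30.7 RPKM in E85Q, 33.3 and 43.1 RPKM in D87E and 79.6 and 52.6 RPKM in WT. INO1 footprints in the same cultures were 43.7 and 39.5 RPKM in E85Q, 50.9 and 54.9 RPKM in D87E and 109 and 64.8 RPKM in WT. Both mutants lay below both WT isolates in either assay, and the WT isolates themselves stood apart, with WT 172 well above WT 600. E85Q differed from WT by a log2 value of -1.01 ± 0.21 in mRNA (0.498 of the WT level, adjusted p = 0.00875) and by -1.001 ± 0.24 in footprints (0.0366).

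Of the 9 genes, limma called 3 in E85Q against WT with methionine for mRNA (INO1 lower, INO4 and OPI1 higher; background 28.6%) and 2 for footprints (INO1 lower, INO4 higher; 7.61%). INO1 was also among the 19 genes that were called with at least a 2-fold difference in mRNA, which is 0.389% of those tested. Centring turned the mRNA calls into 1 higher and 2 lower (INO4, and INO1 with OPI3). Over all tested genes it turned 22.4% higher and 6.2% lower into 6.44% and 13.7%. No gene of the 9 was called for TE (background 0.143%), with 1 at an unadjusted p below 0.05. The INO1 mRNA difference ranged from -1.30 to -0.71 when 1 library was left out, and its call was lost without E85Q 623 (-1.05). The INO1 footprint difference was lost without WT 172 (-0.63), E85Q 623 (-1.07) or E85Q 625 (-0.93), and with no filter on low values. The D87E value was -0.76 ± 0.21 in mRNA (unadjusted p = 0.00416, adjusted p = 0.981) and -0.66 ± 0.24 in footprints (0.999), not called.

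Starved cells held more INO1 footprints and more INO1 mRNA in every genotype, though the mRNA rise was called in the mutants only. The mRNA response of neither mutant was called different from that of WT. INO1 mRNA was 61.6 and 45.0 RPKM in starved E85Q, 54.5 and 68.4 RPKM in starved D87E and 88.5 and 80.6 RPKM in starved WT. Its footprints were 83.0 and 52.4 RPKM in starved E85Q, 93.7 and 113 RPKM in starved D87E and 159 and 153 RPKM in starved WT. Starved WT lay above both starved mutants in either assay, and E85Q 623 lay above E85Q 625. The mRNA changes were 0.71 ± 0.21 in E85Q (adjusted p = 0.00885), 0.68 ± 0.21 in D87E (0.0101) and 0.38 ± 0.21 in WT (0.106). The WT change was called with the isolate as a block (adjusted p = 0.0173) and without WT 172 with methionine (0.67). The E85Q call was lost without E85Q 623 starved (0.49), and the D87E call without D87E 887 with methionine (0.49), without D87E 888 starved (0.51) and after centring (0.28).

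INO1 footprints rose 1.57-fold in E85Q (0.0303), 1.93-fold in D87E (0.00412) and 1.84-fold in WT (0.00616). The E85Q rise, log2 0.65, was lost without E85Q 623 in either medium (0.33 starved and 0.73 with methionine), without E85Q 625 with methionine (0.58) and with no filter, and the WT rise, log2 0.88, without WT 600 with methionine (0.51). INO1 shared with CHO1 a rise in TE in D87E and WT. The ratio of footprints to mRNA was 1.35 and 1.16 in starved E85Q, 1.72 and 1.65 in starved D87E and 1.8 and 1.89 in starved WT, against 1.23 to 1.53 with methionine. TE changed by -0.06 ± 0.11 in E85Q (0.782, not called), by 0.27 ± 0.11 in D87E (0.0458) and by 0.50 ± 0.11 in WT (0.00256). The D87E call was lost without either starved D87E library (0.24 and 0.30) or without D87E 888 with methionine (0.14), and with a pseudocount of 0.1, no filter or only the D87E samples in the fit (adjusted p of 0.0517, 0.0585 and 0.0649).

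The TE response of INO1 was smaller in E85Q than in WT (-0.56 ± 0.15, 0.0255), the 1 called TE difference of that sign among the 9 genes. Its call held after centring and was lost without WT 600 in either medium (-0.53 starved and -0.49 with methionine), E85Q 623 with methionine (-0.54) or E85Q 625 starved (-0.46). Starved E85Q was lower than starved WT in INO1 mRNA (-0.67 ± 0.21, 0.0163), footprints (-1.23 ± 0.24, 0.00223) and TE (-0.56 ± 0.11, 0.00327). The mRNA call was lost without WT 172 (-0.60) or E85Q 625 (-0.45) and after centring (-0.49); the footprint and TE calls were kept without any 1 of the 4 libraries.

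ITR1 (YDR497C, chromosome IV, 1443713 to 1445467 on the minus strand) encodes the main myo-inositol transporter of the plasma membrane. Its mRNA was 729 and 701 RPKM in starved E85Q, against 667 and 652 RPKM in E85Q with methionine. In D87E it was 443 and 479 RPKM starved and 569 and 611 RPKM with methionine, and in WT 487 and 460.4 RPKM starved and 696 and 632 RPKM with methionine. Starved E85Q thus stood at the top of the 6 groups and starved D87E and WT at the bottom. mRNA fell in D87E by 0.36 (SE 0.08, adjusted p = 0.00218) and in WT by 0.49 (SE 0.08, 0.000248), and in E85Q it changed by 0.12 ± 0.08 (0.225).

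ITR1 footprints showed the largest difference between the E85Q and WT responses of the 9 genes. They were 388 and 368 RPKM in starved E85Q and 444 and 392 RPKM in E85Q with methionine. They were 171 and 171 RPKM in starved D87E and 405 and 455 RPKM in D87E with methionine. In WT they were 215 and 190.4 RPKM starved and 468 and 451 RPKM with methionine. All 4 starved D87E and WT libraries lay far below the others, and starved E85Q lay just under E85Q with methionine. Starved footprints were 0.399 of the level with methionine in D87E and 0.441 of it in WT (adjusted p of 4.29e-07 and 9.78e-07), and the change in E85Q was -0.14 ± 0.10 (0.193).

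The E85Q response of ITR1 differed from that of WT by 0.60 ± 0.12 in mRNA (0.00169) and by 1.04 ± 0.13 in footprints (0.000634), both called without any 1 of the 8 libraries. Footprints over mRNA were 0.533 and 0.524 in starved E85Q, 0.385 and 0.358 in starved D87E and 0.441 and 0.414 in starved WT, against 0.602 to 0.745 with methionine. TE fell in D87E (-0.97 ± 0.08, 6.49e-06) and WT (-0.70 ± 0.08, 6.89e-05), and was -0.26 ± 0.08 in E85Q (0.0856). The TE difference of 0.44 ± 0.11 between the E85Q and WT responses (0.024) was lost after centring (0.29) and without WT 600 or E85Q 625 in either medium (0.36 to 0.45). Between starved cells E85Q exceeded WT in mRNA (0.59 ± 0.08, 0.000186), footprints (0.90 ± 0.10, 9.84e-05) and TE (0.31 ± 0.08, 0.0149), the TE call being lost without WT 600 (0.26), E85Q 623 (0.29) or E85Q 625 (0.32).

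INO2 (YDR123C, chromosome IV, 698554 to 699468 on the minus strand) encodes a helix-loop-helix activator that binds the inositol-sensitive element together with Ino4. Its mRNA was 11.0 and 11.6 RPKM in starved E85Q, against 19.6 and 20.6 RPKM in E85Q with methionine. In D87E it was 19.1 and 20.6 RPKM starved and 18.6 and 19.9 RPKM with methionine, and in WT 22.2 and 18.8 RPKM starved and 17.6 and 19.4 RPKM with methionine. The starved E85Q libraries stood alone, far below the other 10. mRNA fell in E85Q by 0.78 (SE 0.09, adjusted p = 1.54e-05) and changed by 0.04 ± 0.09 in D87E (0.668) and 0.13 ± 0.09 in WT (0.174). After centring, the D87E and WT values turned to called falls (-0.36 and -0.27), and without WT 600 starved the WT value was a called rise (0.25). The E85Q response differed from the WT response by -0.91 ± 0.12 (0.000268), called in every fit made.

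INO2 footprints came down in starved cells of every genotype to similar levels. They were 9.98 and 10.4 RPKM in starved E85Q, 10.2 and 12.7 RPKM in starved D87E and 11.5 and 11.5 RPKM in starved WT. With methionine they were 21.8 and 18.6 RPKM in E85Q, 16.8 and 16.8 RPKM in D87E and 18.3 and 18.1 RPKM in WT. The groups without and with methionine did not overlap in any genotype, and starved E85Q and WT differed by -0.16 ± 0.10 (0.193, not called) although INO2 mRNA differed by -0.80 ± 0.09 (4.48e-05). The starved WT isolates lay closer (SD 0.0101 RPKM, n = 2) than their counting errors of 6.65 and 6.34%. Footprints fell by 0.92 in E85Q (1.21e-05), 0.52 in D87E (0.000558) and 0.62 in WT (0.000157).

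The ratio of INO2 footprints to mRNA was 0.911 and 0.89 in starved E85Q, 0.535 and 0.615 in starved D87E and 0.516 and 0.611 in starved WT, against 0.842 to 1.12 with methionine. TE fell in D87E (-0.56 ± 0.12, 0.00166) and WT (-0.76 ± 0.12, 0.000371), the D87E call being lost after centring (-0.29), and was -0.14 ± 0.12 in E85Q (0.514). The E85Q TE response exceeded that of WT by 0.61 ± 0.16 (0.025), which was lost after centring (0.47) and without WT 172 in either medium, WT 600 with methionine, or E85Q 625 in either medium (0.47 to 0.69). INO2 TE in starved E85Q was above that in starved WT by 0.64 ± 0.12 (0.00253).

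INO4 (YOL108C, chromosome XV, 111431 to 111886 on the minus strand) encodes the partner of Ino2. Its mRNA was 49.4 and 48.2 RPKM in starved E85Q, 52.0 and 51.0 RPKM in starved D87E and 56.2 and 55.0 RPKM in starved WT. With methionine it was 27.5 and 26.2 RPKM in E85Q, 20.1 and 21.0 RPKM in D87E and 19.9 and 16.9 RPKM in WT. E85Q was thus the highest genotype with methionine and the lowest when starved, and no starved group overlapped the same genotype with methionine. The changes were 1.79-fold in E85Q, 2.43-fold in D87E and 2.92-fold in WT (adjusted p of 1.4e-06, 3.3e-08 and 8.57e-09). E85Q responded less than WT (-0.71 ± 0.10, 0.000297), called in every fit made. With methionine E85Q exceeded WT by 0.52 ± 0.07 (0.00246). When starved it was lower (-0.18 ± 0.07, 0.043; an adjusted p of 0.0541 with no filter), a call lost without any 1 of the 4 libraries (-0.20 to -0.17) and turned to 0.00 after centring.

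INO4 footprints were 72.8 and 63.2 RPKM in starved E85Q, 58.8 and 62.9 RPKM in starved D87E and 55.7 and 57.6 RPKM in starved WT. With methionine they were 39.9 and 32.8 RPKM in E85Q, 26.0 and 25.4 RPKM in D87E and 25.8 and 28.5 RPKM in WT. E85Q was above WT in both media. Footprints rose 1.85-fold in E85Q, 2.32-fold in D87E and 2.05-fold in WT. The E85Q excess with methionine, 0.40 ± 0.10 (0.0389), was lost without WT 172 (0.33), WT 600 (0.47) or E85Q 623 (0.27) and with no filter. The excess when starved, 0.26 ± 0.10 (0.0509), was not called, and was called after centring (0.38) or without E85Q 625 (0.36).

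INO4 TE fell in WT (-0.51 ± 0.12, 0.00481), where WT 600 with methionine had the highest ratio of footprints to mRNA of all 12 samples, 1.69, and the call was lost without it (-0.34). It was 0.05 ± 0.12 in E85Q (0.86) and -0.07 ± 0.12 in D87E (0.635). INO4 TE in starved E85Q exceeded that in starved WT by 0.44 ± 0.12 (0.0179), lost without WT 172 (0.40) or E85Q 623 (0.36). The difference of the E85Q and WT responses, 0.56 ± 0.17 (0.0405), was lost after centring (0.42) and without any 1 of 7 of the 8 libraries (0.38 to 0.66), WT 172 with methionine being the exception (0.74).

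OPI1 (YHL020C, chromosome VIII, 66242 to 67456 on the minus strand) encodes the repressor of the same genes. Its mRNA was 118 and 118 RPKM in starved E85Q, 147 and 159.9 RPKM in starved D87E and 162 and 158 RPKM in starved WT. With methionine it was 86.3 and 86.3 RPKM in E85Q, 62.2 and 64.2 RPKM in D87E and 68.5 and 70.0 RPKM in WT. As with INO4, E85Q was highest with methionine and lowest when starved, without overlap. OPI1 rose 1.37-fold in E85Q, 2.41-fold in D87E and 2.29-fold in WT (adjusted p of 3.23e-05, 7.7e-09 and 1.11e-08). The E85Q response was smaller than that of WT in mRNA (-0.75 ± 0.08, 8.69e-05) and footprints (-0.63 ± 0.11, 0.00281), both called in every fit made.

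OPI1 footprints were 63.9 and 55.3 RPKM in starved E85Q, 71.8 and 78.3 RPKM in starved D87E and 87.7 and 86.1 RPKM in starved WT, against 35.7 to 42.3 RPKM in the 6 libraries with methionine. They moved with the mRNA: the ratio of footprints to mRNA was 0.444 to 0.582 over all 12 samples. OPI1 TE passed the test in D87E alone (-0.25 ± 0.08, 0.0239), a call lost without any 1 of the 4 D87E libraries (-0.26 to -0.24) and turned to 0.02 after centring; it was 0.10 ± 0.08 in E85Q (0.529) and -0.02 ± 0.08 in WT (0.879). E85Q exceeded WT in OPI1 mRNA with methionine by 0.31 ± 0.06 (0.00589), lost without E85Q 623 (0.31) and after centring (0.18). Starved E85Q was below starved WT in mRNA (-0.43 ± 0.06, 0.000117) and footprints (-0.54 ± 0.08, 0.000568).

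In starved cells as a whole, limma called 6 of the 9 genes between E85Q and WT in mRNA (background 61.1%), 6 in footprints (53.2%) and 8 in TE (36.1%). In mRNA ITR1 was higher and CHO2, INO1, INO2, INO4 and OPI1 were lower, beside 15.7% higher and 45.5% lower among all tested genes. After centring 2 were higher (OPI3 and ITR1) and 2 lower (INO2 and OPI1), beside 30.7% and 26.2%. In footprints CHO2, OPI3 and ITR1 were higher and CHO1, INO1 and OPI1 lower, beside 20.6% higher and 32.5% lower among all tested genes. After centring PSD1 and INO4 joined the higher genes, making 5 and 3, beside 31.5% and 22.6%. In TE the 6 genes PSD1, CHO2, OPI3, ITR1, INO2 and INO4 were higher (background 24% higher) and CHO1 and INO1 lower (12% lower). CHO1 and INO1 are the genes whose TE rose in starved WT. After centring 5 were higher in TE and 2 lower, beside 17.7% and 16.5%. With only the groups compared in the fit, 4 were higher and 2 lower, beside 17.6% and 9.23%. This comparison and that of the starvation responses share the starved libraries, and are not independent of each other. The median TE difference was 0.31 over the 9 genes and 0.06 over all tested genes.

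No difference between D87E and WT passed the test for these genes. limma called none of the 9 in mRNA, footprints or TE, with methionine (backgrounds 0%, 0.0614% and 0.143%) or without it (0%, 0% and 0.0205%). At an unadjusted p below 0.05 there were 4 in mRNA, 1 in footprints and 0 in TE with methionine, and 2, 3 and 1 without. Without D87E 888 starved, 1 was called, PSD1 footprints in starved cells (-0.31). The D87E minus WT difference in the CHO2 TE response was -0.04 with a 95% interval of -0.42 to 0.35, beside 0.87 for E85Q minus WT. For OPI3 footprints the D87E minus WT difference of responses was -0.06 (-0.46 to 0.34), and for INO1 mRNA, the least precise of the 9, 0.30 (-0.35 to 0.94). For ITR1 footprints the D87E difference was -0.14 (-0.44 to 0.16), and for INO2 mRNA -0.09 (-0.37 to 0.19). Both mutants were set against the same WT libraries, and the difference between the mutants was not tested.

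Over the 12 mRNA libraries, the genes with the pattern most like CHO2, by Pearson r on log2(RPKM + 1), were YLR345W, XKS1 and PTC6, each at r = 0.997. These libraries fall into a starved and a with-methionine cluster, r was taken over both together, and it is given as a description. Those most like OPI3 were CYC3 (0.897), PUT2 (0.87) and YFR018C (0.845), and those most like INO1 were PEX11 (0.886), ARE2 (0.86) and YFH7 (0.858).

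Neighbouring branches of lipid metabolism were read from 6 lists of 57 genes, of which 56 were tested; GIT1 was not. In the choline and ethanolamine (Kennedy) pathway, which makes the same lipids from free bases, mRNA of 4 of 7 genes rose and 0 fell in starved E85Q, 6 and 0 in D87E, and 5 and 1 in WT; after centring these were 3 and 0, 4 and 2, and 3 and 2. Among all tested genes mRNA of 46.5% rose and 30.3% fell in E85Q, 60.7% and 25.5% in D87E, and 60.2% and 26.7% in WT. After centring these shares were 40.2% and 34.7%, 40.9% and 41.2%, and 40.4% and 41.4%. The ethanolamine kinase gene EKI1 changed by 0.48 in E85Q, 1.16 in D87E and 1.11 in WT, and the choline kinase gene CKI1 by 0.89, 0.90 and 0.99. EPT1, of the last step, changed by 0.61, 0.82 and 0.65. TE fell for 7 of the 7 in D87E and in WT, and after centring for 6 in D87E and 3 in WT. Among all tested genes TE fell for 47.9% in D87E and 36.6% in WT, and after centring for 23.4% and 21.1%. In E85Q limma called 0 for TE (background 6.2%), with 2 at an unadjusted p below 0.05 and a median of -0.19.

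Among 14 genes of phosphatidic acid, CDP-diacylglycerol and other phospholipid branches, mRNA of 10 rose and 2 fell in E85Q, 10 and 2 in D87E, and 9 and 3 in WT; after centring these were 8 and 2, 6 and 4, and 6 and 5. Over all tested genes the shares were 46.5% higher and 30.3% lower in E85Q, 60.7% and 25.5% in D87E, and 60.2% and 26.7% in WT. Centred, they were 40.2% and 34.7%, 40.9% and 41.2%, and 40.4% and 41.4%. NEM1, a subunit of the phosphatase that activates the Pah1 lipin, rose by 0.84 in E85Q, 1.82 in D87E and 1.76 in WT. The cardiolipin synthase gene CRD1 rose by 0.65, 1.66 and 1.68, and TAM41, which supplies mitochondrial CDP-diacylglycerol, by 0.64, 0.90 and 0.81. The E85Q response was smaller than that of WT for NEM1 (-0.92, adjusted p = 0.000383) and CRD1 (-1.02, 4.25e-05). TE in this list fell for 1 gene in E85Q, 10 in D87E and 9 in WT, and rose for 0, 0 and 1. After centring it fell for 1, 9 and 7 and rose for 0, 0 and 2. Over all tested genes TE fell for 4.28%, 47.9% and 36.6% and rose for 1.92%, 13.1% and 16.7%. Centred, it fell for 3.4%, 23.4% and 21.1% and rose for 3.76%, 29.6% and 29.3%.

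In the list of inositol uptake, inositol monophosphatase and phospholipid turnover (9 tested), mRNA of 4 rose and 4 fell in E85Q, 5 and 4 in D87E, and 5 and 3 in WT; after centring 3 and 5, 3 and 4, and 3 and 5. The inositol monophosphatase genes went opposite ways: INM1 fell (-0.99 in E85Q, -1.15 in D87E, -0.98 in WT) and INM2 rose (0.84, 1.03 and 0.97). The phospholipase D gene SPO14 rose by 0.86, 1.27 and 1.36. TE fell for 1 of the 9 in E85Q, 9 in D87E and 5 in WT, and after centring for 1, 3 and 3. Of 8 other regulators of the inositol response, mRNA of 5 rose and 1 fell in E85Q, 6 and 1 in D87E, and 4 and 1 in WT (centred 4 and 1, 1 and 4, and 1 and 3), and TE fell for 0, 5 and 3 (centred 0, 2 and 2). Among them the VAP homologue gene SCS22 rose by 0.96, 1.15 and 1.09, the deacetylase gene RPD3 by 0.23, 0.47 and 0.48, and the repressor gene UME6 changed by -0.13 (not called), -0.53 and -0.59. For both lists the background in mRNA was 46.5% higher and 30.3% lower in E85Q, 60.7% and 25.5% in D87E, and 60.2% and 26.7% in WT. Centred, it was 40.2% and 34.7%, 40.9% and 41.2%, and 40.4% and 41.4%. The background of lower TE was 4.28%, 47.9% and 36.6%, and centred 3.4%, 23.4% and 21.1%.

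The fatty acid synthesis genes that carry the inositol-sensitive element were lower in E85Q than in WT with methionine and, but for FAS2, higher in E85Q when starved. ACC1, acetyl-CoA carboxylase, had 284 and 278 RPKM of mRNA in starved E85Q, 195 and 186 RPKM in starved D87E and 198 and 185 RPKM in starved WT. With methionine it had 259.5 and 289 RPKM in E85Q, 329.9 and 335 RPKM in D87E and 344 and 309 RPKM in WT. Against WT with methionine, mRNA of 4 of the 4 genes was lower in E85Q (median -0.27, beside 0.11 over all tested genes), with log2 differences of -0.25 for ACC1 (adjusted p = 0.0368) and -0.40 for ACS2 (0.00768). Against starved WT, 3 were higher in starved E85Q (median 0.44, beside -0.17 over all tested genes; 4 after centring), ACC1 by 0.55 (0.000204) and ACS2 by 0.52 (0.000311). The share of all tested genes called lower in E85Q with methionine was 6.2%, and that called higher in starved E85Q was 15.7% (30.7% after centring). Of the list's 4 genes, mRNA of 2 rose and 0 fell in E85Q, while 1 rose and 3 fell in D87E and likewise in WT (centred 2 and 0, 0 and 3, and 0 and 3). Over all tested genes 46.5% rose and 30.3% fell in E85Q, 60.7% and 25.5% in D87E, and 60.2% and 26.7% in WT. Centred, these shares were 40.2% and 34.7%, 40.9% and 41.2%, and 40.4% and 41.4%. ACC1 changed by 0.04 in E85Q (not called), -0.80 in D87E and -0.77 in WT, ACS2, acetyl-CoA synthetase, by 0.29, -0.44 and -0.63, and FAS1, a fatty acid synthase subunit, by 0.04 (not called), -0.51 and -0.61. The response in E85Q, which holds both of these differences, exceeded that in WT for all 4, by 0.81 for ACC1 (adjusted p = 0.00028), 0.92 for ACS2 (0.000145) and 0.65 for FAS1 (0.00104). The median difference was 0.73 over the 4, beside -0.28 over all tested genes, of which 11.8% were called higher.

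Genes for SAM synthesis and for other methyltransferases, most of them SAM-using, are the wider methyl economy around CHO2 and OPI3. SAM2, a SAM synthetase gene, had 3529.9 and 3349.6 RPKM of mRNA in starved E85Q, against 418 and 413 RPKM in E85Q with methionine. It had 3310.3 and 3483 RPKM in starved D87E, against 359 and 417 RPKM in D87E with methionine, and 3426 and 3438 RPKM in starved WT, against 469 and 437 RPKM in WT with methionine. SAM2 rose in all genotypes, by 3.05, 3.13 and 2.92, and the E85Q response did not pass the test of a difference (0.13, 0.444). MHT1, which methylates homocysteine, had 439 to 605 RPKM of mRNA in the starved libraries and 0.566 to 1.4 RPKM in those with methionine. It passed the filter on low values through its starved libraries alone. Its log2 rises of 7.65, 8.31 and 8.20 start near the pseudocount of 1, so their size depends on the pseudocount. HMT1, a protein arginine methyltransferase gene, fell (-2.25, -2.16 and -2.30). Of the 14 genes of this list, mRNA of 7 rose and 4 fell in E85Q, 10 and 3 in D87E, and 9 and 3 in WT (centred 6 and 5, 6 and 5, and 6 and 5), and TE fell for 1, 7 and 5 and rose for 0, 0 and 2. After centring TE fell for 1, 2 and 3 of these and rose for 1, 4 and 4, so the balance in D87E and WT turned round. It did so over all tested genes too: TE fell for 4.28%, 47.9% and 36.6% and rose for 1.92%, 13.1% and 16.7%. Centred, it fell for 3.4%, 23.4% and 21.1% and rose for 3.76%, 29.6% and 29.3%. The mRNA background was 46.5% higher and 30.3% lower, 60.7% and 25.5%, and 60.2% and 26.7% (centred 40.2% and 34.7%, 40.9% and 41.2%, and 40.4% and 41.4%).

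The difference of the E85Q and WT responses in TE was called for 15 of the 56 list genes, all with the higher value in E85Q (among all tested genes 21.9% were called, 17.4% higher): 2 of the Kennedy genes, 7 of the phosphatidic acid and CDP-diacylglycerol genes, 2 of the inositol and turnover genes, 1 regulator, 1 fatty acid gene and 2 of the SAM genes. After centring 8 were called higher and 1 lower, beside 7.63% higher and 7.96% lower among all tested genes. In mRNA the same difference was called higher for 9 and lower for 20 of the 56, the 9 including all 4 fatty acid genes, against 11.8% higher and 48.6% lower among all tested genes. Centring turned that balance round, to 22 higher and 6 lower. It did so over all tested genes too, to 27.5% higher and 20.2% lower. For D87E and WT limma called 0 of the 56 in mRNA, footprints or TE, with 2, 11 and 12 at an unadjusted p below 0.05.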

How the data were processed

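RNA-seq of rRNA-depleted total RNA and ribosome footprints of 18 to 34 nt were measured in the 12 samples, 24 libraries in all. The values are RPKM, deposited by the authors as 1 table per assay. The submitters' processing notes name the sacCer3 build, TopHat2 2.1.1 and Bowtie 1.1.2; the scaling is not given in the sources used here. Whole reads fitted 75.1 to 80.4% of low mRNA values and 68.3 to 77.4% of low footprint values within 0.05 of a read, short of nearly all, so no count test was run; the depths are estimates from these steps.

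Genes with a mean of at least 5 RPKM in both assays (4888 of 6304 with values, of 7133 entries) were tested on log2(RPKM + 1) with limma 3.58.1 in R 4.3.3, all 6 groups in a fit, eBayes with a trend, Benjamini-Hochberg adjustment over all tested genes and a threshold of 0.05. Fold changes are on the log2(RPKM + 1) scale and understate the change of low genes. TE was tested as the within-sample difference of log2 footprints and log2 mRNA, and ratios printed per sample have no pseudocount. Figures and sums used Python 3.11.15, pandas 2.3.3, numpy 2.4.6 and matplotlib 3.10.9. The scripts were tested on simulated data.

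The members and the gene lists were chosen with earlier results of these data known. All 9 genes are named. From each list at most 3 genes are named, those with the largest called mRNA change in starved WT; HAC1 and FAS2 were added after their values were seen. Genes most like CHO2, OPI3 and INO1 are the 3 with the highest correlation. Gene positions are those of RefSeq.

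The labels give the samples without and with methionine the same numbered isolate, so they are paired by strain. The deviations of an isolate in its 2 media from the genotype's group means, compared across genes, correlated at 0.172 in E85Q, -0.054 in D87E and -0.183 in WT for mRNA, at 0.409, 0.051 and -0.024 for footprints and at 0.367, -0.045 and -0.021 for TE. Alternatives were a pseudocount of 0.1 or 10, centring, no filter, only the groups compared, each sample left out, and the isolate as a block.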

Additional observations from a re-analysis of the deposited data

Results flagged for a closer look

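Each value here is the log2 change on starvation in E85Q minus that in WT, listed because the test of that difference passed at an adjusted p below 0.05 (limma). In mRNA these were INO2 (-0.91), OPI1 (-0.75), INO4 (-0.71), OPI3 (0.42) and ITR1 (0.60). In footprints they were OPI1 (-0.63), CHO2 (0.49), OPI3 (0.83) and ITR1 (1.04). In TE they were INO1 (-0.56), OPI3 (0.41), ITR1 (0.44), INO4 (0.56), INO2 (0.61) and CHO2 (0.87). The background is wide: the same test was passed by 60.4% of all tested genes in mRNA, 41.4% in footprints and 21.9% in TE. For INO2 the mRNA and TE differences have opposite signs and the footprint difference did not pass the test (-0.30, adjusted p = 0.107). INO4 has the same signs, at -0.71 in mRNA, 0.56 in TE and -0.15 in footprints (not called).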

How the results depend on the processing

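Of the 27 counts of called genes among the 9, most stayed within 1.5 times under every alternative run. The exceptions were TE on starvation in E85Q (1 called, against 3 with a pseudocount of 10 and 2 after centring), TE on starvation in D87E (8, against 5 after centring), the TE difference of the E85Q and WT responses (6, against 2 after centring) and footprints of E85Q against WT with methionine (2, against 0 with no filter and 1 with only those groups). Leaving out 1 sample gave 0 to 1 for TE on starvation in E85Q, 1 to 5 for the TE difference of responses, 4 to 6 for TE in E85Q against WT without methionine, 1 to 4 for mRNA and 0 to 1 for footprints in E85Q against WT with methionine, and 0 to 1 for footprints in D87E against WT without methionine. The cause was not tested. Where 1 sample is left out, the lone sample is assumed to vary like the other groups.

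Centring turned the sign of OPI3 mRNA on starvation in D87E (-0.21) and WT (-0.27), INO2 mRNA on starvation in D87E (-0.36) and WT (-0.27), INO4 mRNA in E85Q against WT without methionine (0.0017) and OPI1 TE on starvation in D87E (0.0216). Centring takes out the median change, which was 0.40 in mRNA in WT and 0.14 in E85Q.

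With the isolate as a replicate block, INO1 mRNA (0.38) and PSD1 footprints (0.17) on starvation in WT were called and the OPI3 difference in TE (0.41) was lost; the block changed no other call and moved no count past 1.5 times. With the WT isolate numbers crossed in mRNA, added after seeing the data, 7, 6 and 0 of the 9 genes were called for starvation in WT and for the E85Q and D87E differences of responses, against 6, 5 and 0. Over 2565 values of single genes under alternatives, 119 lost a call, 27 gained one and 6 turned round. Precision is limited by 2 isolates a group and, for INO2 and INO4, also by reads: their counting errors reached 7.22% (INO2 footprints) and 7.58% (INO4 mRNA), and in some groups exceeded the isolates' spread.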

Other observations

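HAC1, the transcription factor of the unfolded protein response, was in the list of other regulators and was picked out after its values were seen. Its mRNA stood at 664 and 550.4 RPKM in starved E85Q, 712 and 753 RPKM in starved D87E and 672 and 734 RPKM in starved WT, against 514 to 812 RPKM with methionine. HAC1 footprints were 8.06 and 5.61 RPKM in starved E85Q, 2.46 and 1.93 RPKM in starved D87E and 2.36 and 1.07 RPKM in starved WT. With methionine they were 15.5 and 20.0 RPKM in E85Q, 11.1 and 16.8 RPKM in D87E and 11.8 and 19.2 RPKM in WT. HAC1 carried few footprints for its mRNA in every sample and fewest in starved D87E and WT. By limma, footprints changed by -1.27 in E85Q (adjusted p = 0.00279), -2.20 in D87E (4.8e-05) and -2.61 in WT (1.29e-05). The E85Q and WT responses differed by 1.34 (0.0278). HAC1 footprints passed the filter on low values through the libraries with methionine, which favours a fall. Starved D87E and WT, at 1.07 to 2.46 RPKM, lay near the pseudocount of 1. The size of their falls and of the difference between responses therefore depends on the pseudocount. These adjusted p-values do not allow for the filter or for the choice of gene.

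FAS2, the other fatty acid synthase subunit, had 544 and 509 RPKM of mRNA in starved E85Q, against 304 and 343 RPKM in E85Q with methionine, and 511 and 487 RPKM in starved WT, against 412 and 368 RPKM in WT with methionine. Its footprints were 443 and 436 RPKM in starved E85Q, against 323 and 334 RPKM in E85Q with methionine, and 288 and 257 RPKM in starved WT, against 395 and 367 RPKM in WT with methionine. In starved cells FAS2 thus had more mRNA and fewer footprints in WT, and more of both in E85Q. Its TE response differed between E85Q and WT by 0.56 (limma, adjusted p = 0.00957); this gene too was picked out after its values were seen.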
